A study of Mus musculus with 9 samples.

Results

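The chemokine ligands of the mouse retina were examined 2 days after laser treatment. They were all genes whose symbol is Ccl, Cxcl, Cx3cl or Xcl followed by a number and at most 1 letter, which gave 38 of the 48587 gene names in the count table. A ligand was called detected where it had 10 or more counts in at least 3 of the 9 samples, and 25 ligands were detected. Each sample was a pool of 6 retinas of C57BL/6J mice 12 weeks of age. In 3 pools all veins of the eye had been occluded by laser after an injection of the photosensitizer eosin Y (RVO). A further 3 pools held the fellow eyes of those mice, which had received the same laser scheme between the large vessels (control), so they carry the eosin Y and the laser damage but no vein occlusion. The remaining 3 pools were untreated eyes. RVO and control eyes were taken at d2, and n counts pools and not mice.

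Chemokines are small secreted proteins that guide leukocytes along a gradient. They act on G protein-coupled receptors, and the receptor largely decides which cell is attracted. Ligands of CCR2 attract monocytes, ligands of CXCR2 attract neutrophils, and ligands of CXCR3 attract activated T and NK cells. Some family members are made without inflammation. In the nervous system CX3CL1 is held on neurons, and its receptor CX3CR1 is carried by microglia. Many inducible chemokine genes are known targets of the transcription factor NF-kappaB.

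Total counts per sample were 12377572 to 28993921 and lowest in untreated eyes. Levels are in CPM, that is counts per 1e6 of the library after scaling by edgeR's TMM factors over all 9 samples. In untreated samples 3 counts correspond to 0.210 to 0.268 CPM. If none of a group's samples exceeded 3 counts, the fold change was taken against the largest of these floors and is a lower bound. RVO replicate 2 stood apart from the other RVO pools in most inducible ligands, so values are given for each pool. As background to all comparisons with untreated eyes, 12 of 12 retina marker genes were lower in RVO eyes and 9 of 12 in control eyes, against 24.6% and 25.2% of all genes tested. In pooled tissue, fewer cells of a type and less RNA per cell cannot be told apart.

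The 25 detected ligands summed to 241 to 254 CPM in untreated, 260 to 283 CPM in control and 267 to 336 CPM in RVO samples. Of this sum, the 4 ligands Cx3cl1, Cxcl12, Cxcl14 and Cxcl16 held 214 to 226 CPM in untreated, 212 to 219 CPM in control and 148 to 166 CPM in RVO samples. Shares were taken on another scale, CPM per kb of exon. On it all 38 ligands summed to 88.8 to 95.1 in untreated, 96.9 to 108 in control and 116 to 144 in RVO samples. Scaled in this way by exon length, the 4 ligands made up 88.5 to 88.7% of the family in untreated eyes. Their share was 61.3%, 62.4% and 70.0% in control eyes and 24.3%, 41.9% and 24.9% in RVO eyes. The ranges of the 3 groups did not overlap. On the same scale the most abundant ligand of untreated eyes was Cxcl14 with 50.3 ± 3.17 CPM per kb (SD, n = 3), followed by Cx3cl1 with 24.1 ± 0.450. In RVO eyes Ccl2 came first with 19.5 ± 4.28 CPM per kb, but it was not separated by its spread from Cx3cl1 (14.8 ± 5.73), Ccl6 (13.8 ± 4.86) and Cxcl14 (13.4 ± 4.84). This order depends on the exon length, which covers all annotated exons and is 8176 bases for Cxcl12 and 1138 for Ccl2. Without length scaling, Cxcl12 (63.8 CPM) and Cx3cl1 (58.3 CPM) were highest in RVO eyes, and Ccl2 had 22.2 CPM. In untreated eyes Cx3cl1 then had 94.9 CPM and Cxcl14 92.0 CPM.

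**Figure D1:**
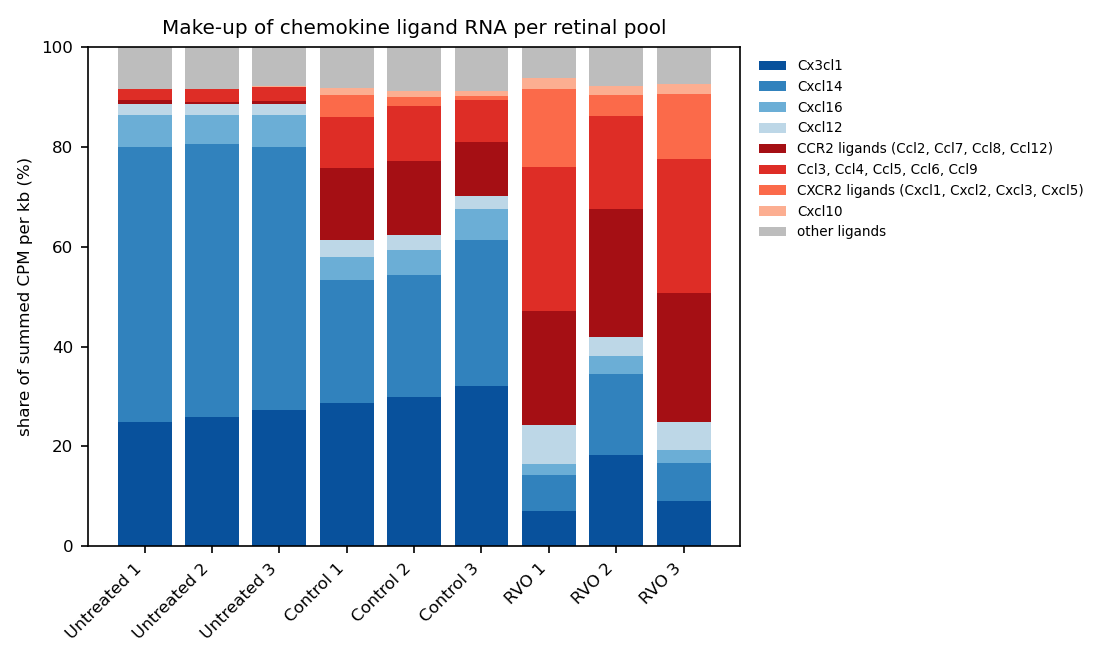
Stacked bars show, for each of the 9 pools, the share of each ligand or ligand group in the summed CPM per kb of exon of all chemokine ligands (%). The blue parts (Cx3cl1, Cxcl14, Cxcl16 and Cxcl12) make up 88.5 to 88.7% of untreated bars, 61.3 to 70.0% of control bars and 24.3 to 41.9% of RVO bars.

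Compared to untreated eyes, 14 of 21 ligands tested were higher in RVO eyes and 2 were lower (quasi-likelihood test of edgeR, p adjusted by Benjamini-Hochberg and under 0.01). Of all 16380 genes tested, 27.4% were higher and 24.6% lower. The median log2 fold change of the 21 ligands was 3.68, against 0.01 for all genes. However, 11 of the 21 had fewer than 10 counts in each untreated sample and passed the filter on low counts only through the RVO samples, and 10 of the 14 higher ligands were among them. The median of 3.68 is the value of Ccl12, which is 1 of these 11, so it depends on the filter and does not describe the whole family. Of the 10 ligands with 10 or more counts in an untreated sample, 4 were higher, namely Ccl6, Ccl9, Ccl28 and Cxcl12. Cxcl14 and Cxcl16, the 2 lower ligands, were also among these 10. In control laser-treated eyes 10 of 17 ligands tested were higher than in untreated eyes and 2 were lower, and 7 of the 17, among them 6 of the 10 higher ones, had fewer than 10 counts in each untreated sample and passed the filter only through the control samples. The median log2 value of the 17 was 0.70, but it was 2.73 with a filter of 10 counts in 3 samples, 2.20 in one fit of all 9 samples and 3.01 without control replicate 3, so it is not set against that of RVO eyes, which is over other ligands. Of all 16066 genes tested there, 27.2% were higher and 25.2% lower. Both comparisons use the same untreated samples.

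Between RVO and control laser-treated eyes, 3 of 24 ligands tested were higher in RVO eyes and 0 were lower at an adjusted p under 0.01. The 3 were Ccl4, Ccl6 and Ccl9. Of all 16874 genes, 2.70% were higher and 0.634% lower at this threshold. At an adjusted p under 0.05, 14 ligands were higher and 4 lower, against 17.5% and 17.1% of all genes. Of the 25 detected ligands, 15 had each RVO sample above each control sample and 5 had each below, which was the case for 27.3% and 25.4% of all genes tested. The counts at 0.01 rested on single pools, for the ligands as for all genes. Without RVO replicate 2, 14 ligands were higher, against 17.1% of all genes. Without any one of the other 5 samples 0 ligands were higher, against 0 to 0.169% of all genes, and 15 or 16 ligands had an unadjusted p under 0.05. Not a single gene was called without RVO replicate 3, control replicate 2 or control replicate 3, so each call between RVO and control eyes given for a single gene is lost there. With DESeq2's Wald test 11 ligands were higher and 3 lower, against 11.0% and 12.8% of all genes.

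**Figure D2:**
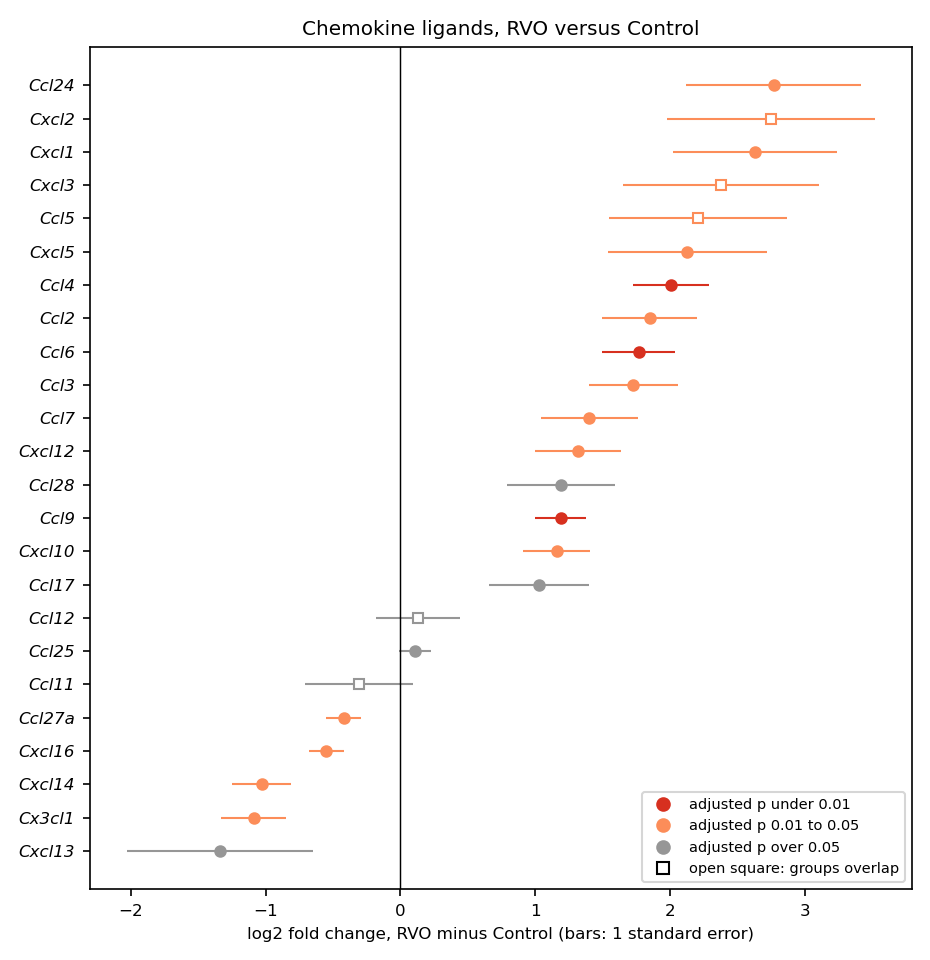
Points show the log2 fold change between RVO and control laser-treated eyes for the 24 ligands tested, with bars of 1 standard error. Red points (Ccl4, Ccl6 and Ccl9) passed an adjusted p of 0.01, orange points only 0.05, and open squares mark the 5 ligands whose groups overlap.

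The ligands of CCR2 were at or near 0 counts in untreated eyes. Ccl2, the main attractant of inflammatory monocytes, had 24.1, 16.7 and 25.9 CPM in RVO samples, 8.07, 7.41 and 3.04 CPM in control samples and 0.0895, 0 and 0.0701 CPM in untreated samples. The groups were ordered without overlap, and RVO replicate 2 was the lowest RVO pool. Ccl2 was at least 82.7-fold higher in RVO eyes (edgeR adjusted p = 4.21e-06) and at least 23.0-fold higher in control eyes (edgeR adjusted p = 3.45e-06) than in untreated eyes. The difference between RVO and control eyes was 1.85 on the log2 scale (standard error 0.35), with an edgeR adjusted p of 0.0126, which missed the threshold. Ccl7, a further monocyte attractant, showed the same order. It had 5.64, 4.08 and 7.01 CPM in RVO samples, 2.42, 2.84 and 1.10 CPM in control samples and 0 counts in each untreated sample, which is at least 20.8-fold and at least 7.90-fold higher than in untreated eyes.

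Ccl12, a mouse ligand of CCR2, differed from both. It had 2.32, 5.28 and 2.75 CPM in RVO samples, 3.01, 3.00 and 3.38 CPM in control samples and 0.358, 0.153 and 0.280 CPM in untreated samples. RVO and control samples overlapped, and RVO replicate 2 was the highest of all 9 samples. It was 12.8-fold higher in RVO eyes (edgeR adjusted p = 3.64e-04) and 11.6-fold higher in control eyes (edgeR adjusted p = 1.10e-06). Its log2 difference between RVO and control eyes was 0.13 with a standard error of 0.31, and it was -0.33 without RVO replicate 2. Ccl8, the fourth ligand of CCR2, was not detected, with at most 7 counts. Ccl2, Ccl7 and Ccl12 lie with Ccl11, Ccl8 and Ccl1 in 1 cluster on chromosome 11 (82035571 to 82305690, build GRCm38), and 4 of these 6 genes were detected.

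Ccl3, Ccl4, Ccl5, Ccl6 and Ccl9 lie in a second cluster on chromosome 11 (83525778 to 83664683). All 5 were detected, and all 5 were higher in RVO than in untreated eyes. Ccl6, a mouse CCR1 ligand of myeloid cells, had 31.2, 14.8 and 28.2 CPM in RVO samples, 7.44, 7.87 and 6.51 CPM in control samples and 0.984, 0.994 and 0.841 CPM in untreated samples. The 3 groups did not overlap. The rise was 26.1-fold in RVO eyes (log2 fold change 4.71, standard error 0.36, edgeR adjusted p = 2.72e-05) and 7.61-fold in control eyes (edgeR adjusted p = 1.76e-07). RVO eyes were 3.40-fold above control eyes (edgeR adjusted p = 0.00977).

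Ccl9, also a mouse CCR1 ligand, had the highest level of this group in untreated eyes per kb of exon. It had 17.0, 14.9 and 19.3 CPM in RVO samples, 6.52, 9.54 and 6.42 CPM in control samples and 4.92, 3.98 and 4.77 CPM in untreated samples. It rose 3.72-fold in RVO eyes (edgeR adjusted p = 3.90e-05) and 1.62-fold in control eyes (edgeR adjusted p = 0.00529), and RVO eyes were 2.28-fold above control eyes (edgeR adjusted p = 0.00989).

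Ccl3 and Ccl4 encode the macrophage inflammatory proteins MIP-1 alpha and beta. Ccl4 had 2.90, 2.06 and 3.46 CPM in RVO samples, 0.639, 0.863 and 0.591 CPM in control samples and 0, 0.382 and 0.210 CPM in untreated samples. RVO eyes were 4.03-fold above control eyes (2.01 on the log2 scale with a standard error of 0.28, edgeR adjusted p = 0.00887), while its difference between control and untreated eyes missed the threshold (edgeR adjusted p = 0.0182). Ccl3 had 5.19, 3.18 and 5.23 CPM in RVO samples, 1.60, 1.73 and 0.803 CPM in control samples and at most 0.0701 CPM in untreated samples. Against untreated eyes this is at least 16.9-fold more after RVO and at least 5.12-fold more after control laser treatment. Ccl5 attracts T cells and monocytes. Its RVO samples had 6.90, 1.25 and 3.90 CPM and its control samples 1.41, 0.812 and 0.422 CPM, so that RVO replicate 2 lay below control replicate 1. In RVO eyes it was at least 15.0-fold higher than in untreated eyes (edgeR adjusted p = 0.00110).

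**Figure D3:**
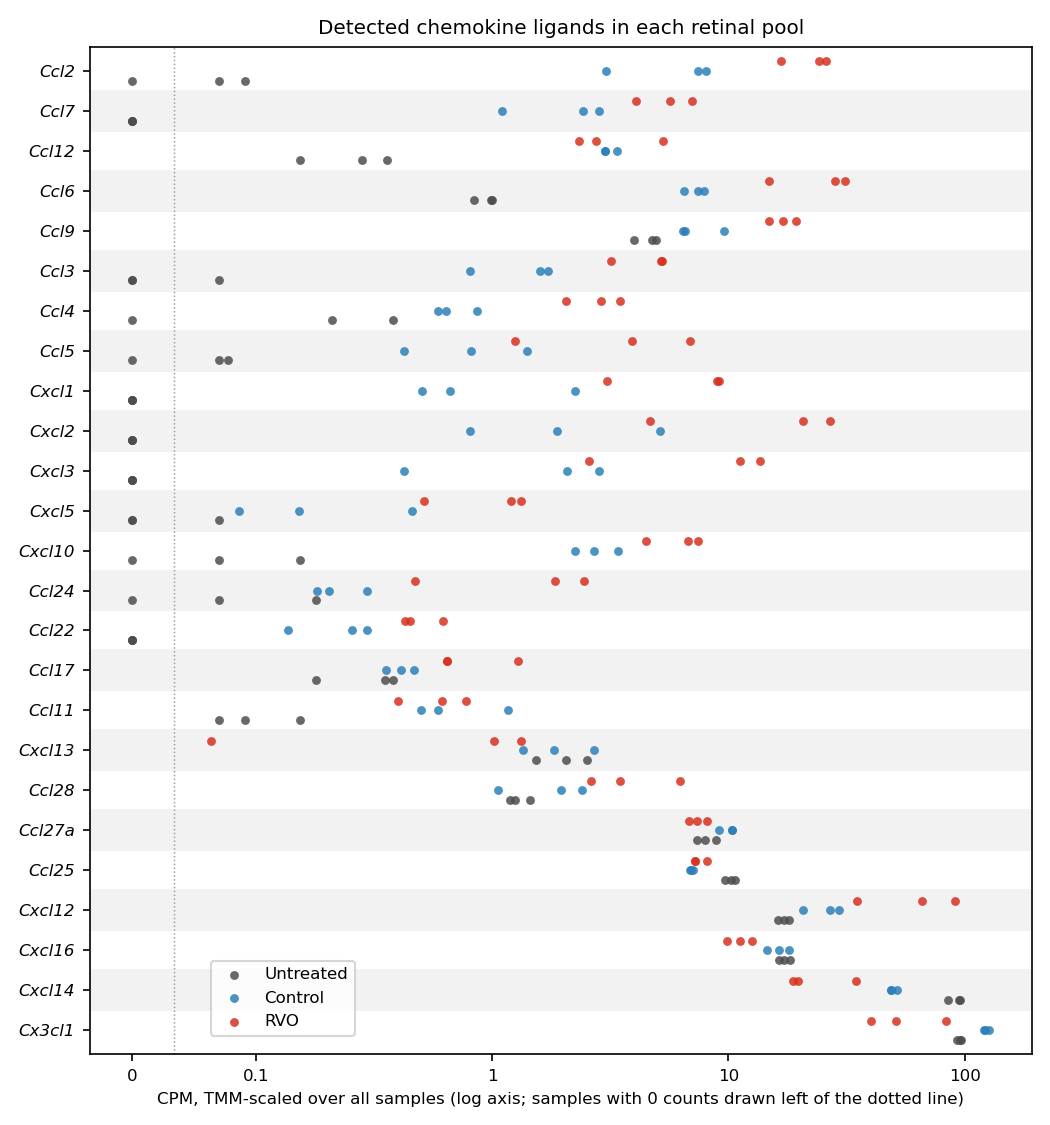
Points show the CPM of each detected ligand in each of the 9 pools on a log axis, in red for RVO, blue for control and grey for untreated samples, with 0 counts drawn left of the dotted line. Cxcl1, Cxcl2, Cxcl3, Ccl7 and Ccl22 had 0 counts in each untreated sample, whereas Cxcl14 and Cxcl16 were lower in each RVO sample than in each control sample.

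The ligands of CXCR2 were listed at 0 counts in untreated eyes, apart from 0.0701 CPM of Cxcl5 in 1 sample. Cxcl2, an early neutrophil attractant, had 26.8, 4.64 and 20.6 CPM in RVO samples and 5.11, 1.88 and 0.803 CPM in control samples. RVO replicate 2 was within the range of the control samples. Cxcl2 was at least 64.6-fold higher in RVO eyes (edgeR adjusted p = 0.00136) and at least 9.68-fold higher in control eyes (edgeR adjusted p = 8.87e-04) than in untreated eyes.

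Cxcl3 had 13.6, 2.58 and 11.2 CPM in RVO samples and 2.83, 2.08 and 0.422 CPM in control samples, again with RVO replicate 2 inside the control range. Cxcl1 had 8.93, 3.05 and 9.14 CPM in RVO samples and 2.24, 0.660 and 0.507 CPM in control samples, without overlap. Against untreated eyes, Cxcl3 was at least 34.1-fold and Cxcl1 at least 26.2-fold higher in RVO eyes (edgeR adjusted p = 0.00170 and 6.16e-04), and neither passed the filter on low counts in the comparison of control with untreated eyes. Cxcl5 had 1.32, 0.515 and 1.20 CPM in RVO and 0.456, 0.152 and 0.0845 CPM in control samples. Between RVO and control eyes the log2 fold changes of these 4 ligands were 2.13 to 2.75, and their edgeR adjusted p-values of 0.0182 to 0.0408 missed the threshold. Cxcl15 had 0 counts in all 9 samples.

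Cxcl5, Cxcl3, Cxcl15, Cxcl1 and Cxcl2 lie together on chromosome 5 (90759360 to 90905938, build GRCm38). The promoters of the ligands were searched for 3 short motifs, and those of Cxcl1, Cxcl2, Cxcl3 and Cxcl10 are shown because they hold a match to an NF-kappaB motif. Sequences are from RefSeq (GRCm38.p6), and 27 of the 38 ligands and 17 of the 25 detected ones had an entry. The 250 bases before the start were searched on both strands for GGGANNTTCC, where N is any base. It was found in 1.21% of all 32851 promoters and in 5 of the 33 promoters of the ligands, as a gene can have several. By gene, it was found in 5 of the 27 ligands and in 4 of the 17 detected ones. The fifth ligand was Ccl1, which was not detected. The sequences are printed 5′ to 3′ on the strand of the gene with the matching bases in capitals. In Cxcl1, Cxcl2 and Cxcl3 matches on both strands overlap and together cover 11 bases, and Cxcl10 holds 1 match of 10 bases. The windows are chr5:90891125-90891214 (plus strand) for Cxcl1, chr5:90903779-90903868 (plus strand) for Cxcl2, chr5:90785981-90786070 (plus strand) for Cxcl3 and chr5:92348990-92349079 (minus strand) for Cxcl10.
Cxcl1: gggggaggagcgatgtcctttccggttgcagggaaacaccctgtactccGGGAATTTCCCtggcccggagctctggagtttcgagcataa
Cxcl2: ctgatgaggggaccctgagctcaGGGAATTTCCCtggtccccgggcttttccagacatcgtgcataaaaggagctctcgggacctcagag
Cxcl3: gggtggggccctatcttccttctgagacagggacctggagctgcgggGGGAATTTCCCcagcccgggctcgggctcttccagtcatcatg
Cxcl10: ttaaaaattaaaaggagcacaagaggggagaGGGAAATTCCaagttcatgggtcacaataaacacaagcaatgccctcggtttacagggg

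The same 11 bases stand at -71 to -61 in Cxcl1, -97 to -87 in Cxcl2 and -73 to -63 in Cxcl3, counted from the start, and the match of Cxcl10 stands at -159 to -150. As Cxcl1, Cxcl2 and Cxcl3 lie in the same cluster, their 3 matches may not be independent. Among the detected ligands, the interferon response motif TTTCNNTTTC was found in Cxcl10 and Cxcl14, and TATAAA in 6 of 17. Counted by promoter, they were found in 3 and 10 of the 33 promoters of the ligands, against 2.98% and 12.4% of all promoters. These matches describe the letters only, and binding was not measured.

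Of the ligands of CXCR3, only Cxcl10 was detected. This interferon-induced attractant had 7.42, 4.47 and 6.74 CPM in RVO samples, 3.42, 2.69 and 2.24 CPM in control samples and 0, 0.153 and 0.0701 CPM in untreated samples, without overlap. It was at least 23.1-fold higher in RVO eyes (edgeR adjusted p = 3.37e-05) and at least 10.4-fold higher in control eyes (edgeR adjusted p = 2.17e-06). Cxcl9 and Cxcl11, its neighbours on chromosome 5, had at most 3 counts in any sample. In the annotation 133 exon bases of Cxcl10 are shared with Art3 on the opposite strand. The libraries were stranded, but the strand setting of the counting is not given in the sources used here.

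Cxcl12, Cxcl14, Cx3cl1 and Cxcl16 are made without inflammation in many tissues, and they went different ways here. Cxcl12, which holds CXCR4-bearing cells in tissues, had 90.8, 34.9 and 65.7 CPM in RVO samples, 29.5, 26.8 and 20.7 CPM in control samples and 17.2, 18.1 and 16.2 CPM in untreated samples. Each RVO sample lay above each control sample and each control sample above each untreated one. The rise was 3.70-fold in RVO eyes (edgeR adjusted p = 9.16e-04) and 1.47-fold in control eyes (edgeR adjusted p = 0.00147).

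Cxcl14, a chemokine made constitutively in many epithelia and in the nervous system, had the opposite order. It had 18.8, 34.6 and 19.8 CPM in RVO samples, 48.8, 48.6 and 51.6 CPM in control samples and 95.7, 94.9 and 85.3 CPM in untreated samples. It fell 3.81-fold in RVO eyes (log2 fold change -1.93 with a standard error of 0.22, edgeR adjusted p = 1.50e-04) and 1.87-fold in control eyes (log2 fold change -0.91 with a standard error of 0.06, edgeR adjusted p = 1.79e-07). RVO replicate 2 was the RVO pool closest to the control samples.

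Cx3cl1 had 40.2, 83.5 and 51.1 CPM in RVO samples, 121, 127 and 122 CPM in control samples and 93.0, 96.5 and 95.2 CPM in untreated samples. It was the only detected ligand with each control sample above and each RVO sample below all untreated samples. It rose 1.28-fold after control laser treatment (0.36 ± 0.05 on the log2 scale, standard error, edgeR adjusted p = 5.64e-05). After RVO the difference was -0.72 ± 0.23 on the log2 scale and missed the threshold (edgeR adjusted p = 0.0229). Its receptor Cx3cr1 had 2.74, 8.37 and 3.99 CPM in RVO samples, 11.5, 11.4 and 10.1 CPM in control samples and 13.0, 9.02 and 16.6 CPM in untreated samples, and no comparison passed (edgeR adjusted p = 0.0148 between RVO and untreated eyes). Of 7 microglia markers, 5 were lower in RVO and 5 in control eyes than in untreated eyes, against 24.6% and 25.2% of all genes tested. The sum of the microglia markers was 47.3 to 75.8 CPM in RVO, 75.6 to 84.2 CPM in control and 125 to 191 CPM in untreated samples. The part of these cells in the result was not tested.

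Cxcl16, a membrane-bound ligand of CXCR6, had 9.90, 12.6 and 11.2 CPM in RVO samples, 14.6, 16.3 and 18.1 CPM in control samples and 18.2, 16.4 and 17.2 CPM in untreated samples. It fell 1.56-fold in RVO eyes (edgeR adjusted p = 0.00221), and control and untreated samples overlapped. In the annotation it shares 552 exon bases with Zmynd15 on the opposite strand.

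Of 17 ligands of lymphoid organs and barrier tissues, 5 were tested between RVO and untreated eyes, where 1 was higher and 0 lower, with 2 higher and 1 lower at an adjusted p under 0.05. All genes tested were higher in 27.4% and lower in 24.6% of cases, and at 0.05 in 34.4% and 32.5%. Ccl28, a mucosal ligand of CCR10, had 3.48, 6.23 and 2.62 CPM in RVO samples, 1.96, 2.39 and 1.06 CPM in control samples and 1.25, 1.45 and 1.19 CPM in untreated samples. It rose 3.12-fold after RVO (edgeR adjusted p = 0.00423), with RVO replicate 2 the highest sample. Ccl25, a thymic and gut ligand of CCR9, fell 1.49-fold in control eyes (log2 fold change -0.57 with a standard error of 0.11, edgeR adjusted p = 5.41e-04). It had 6.90 to 7.05 CPM in control, 7.22 to 8.13 CPM in RVO and 9.68 to 10.7 CPM in untreated samples. In the annotation it shares 204 exon bases with Elavl1 on the opposite strand. Ccl27a, a skin ligand of CCR10, had 6.83 to 8.13 CPM in RVO, 9.09 to 10.4 CPM in control and 7.34 to 8.86 CPM in untreated samples, and no comparison passed. It shares 8 exon bases with Il11ra1.

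Cxcl13, which attracts B cells, had 0.0645, 1.33 and 1.02 CPM in RVO samples, 1.82, 2.69 and 1.35 CPM in control samples and 2.06, 2.52 and 1.54 CPM in untreated samples. No comparison of Cxcl13 passed. Ccl24, an eosinophil attractant, had 1.84, 0.472 and 2.44 CPM in RVO samples, 0.182 to 0.296 CPM in control samples and at most 0.179 CPM in untreated samples. RVO eyes exceeded control eyes by 2.77 on the log2 scale (standard error 0.65), the highest value of the 24 ligands tested, with an edgeR adjusted p of 0.0190. Ccl17 and Ccl22, both ligands of CCR4, had few counts. Ccl17 had 0.645, 0.644 and 1.29 CPM in RVO, 0.355 to 0.465 CPM in control and 0.179 to 0.382 CPM in untreated samples, and no comparison passed. Ccl22 had 0.429 to 0.621 CPM in RVO and 0.137 to 0.296 CPM in control samples and 0 counts in untreated samples, and it did not pass the filter in any comparison. Ccl11, a further eosinophil attractant, had 0.399 to 0.773 CPM in RVO, 0.502 to 1.17 CPM in control and 0.0701 to 0.153 CPM in untreated samples, and RVO and control samples overlapped.

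The remaining 13 ligands did not meet the detection rule. Ccl8 came closest, with a highest count of 7 and a third-highest count of 4, whereas Ccl22, the detected ligand nearest the limit, had a third-highest count of 10. Cxcl9 and Cxcl11 had at most 3 counts and Ccl1, Ccl20 and Cxcl17 at most 1. Ccl19, Ccl21a, Ccl21b, Ccl26, Ccl27b, Cxcl15 and Xcl1 had 0 counts in all 9 samples. At this depth 0 counts allow up to 0.0967 to 0.268 CPM per sample, for counting error only. Ccl21a and Ccl21b are nearly identical copies, and how reads matching several genes were handled is not given in the sources used here, so their counts of 0 are uncertain.

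Of 18 chemokine receptors, 9 were tested between RVO and untreated eyes, of which 4 were higher, 0 lower and 5 missed the threshold. Of all genes tested, 27.4% were higher and 24.6% lower. Among the 4 higher receptors, 3 (Ccr1, Ccr2 and Cxcr2) passed the filter only through the RVO samples. Cxcr2, the neutrophil receptor, had 8.42, 4.64 and 8.56 CPM in RVO samples, 2.01, 2.59 and 0.676 CPM in control samples and 0 counts in untreated samples, at least 26.8-fold and at least 6.55-fold higher. Ccr2 had 3.03, 3.78 and 4.52 CPM in RVO, 1.28, 3.00 and 2.28 CPM in control and at most 0.0765 CPM in untreated samples, at least 14.1-fold and at least 8.14-fold higher. Ccr1 had 12.5, 4.90 and 10.8 CPM in RVO, 2.19, 3.76 and 1.90 CPM in control and 0.153 to 0.280 CPM in untreated samples, with log2 fold changes of 5.29 and 3.41. These 3 receptors passed the test in control eyes as well. Each had every RVO sample above every control sample, as did 27.3% of all genes tested. For Ccr2 the nearest values were 3.03 CPM in an RVO sample and 3.00 CPM in a control sample. Cxcr4, the receptor of CXCL12, was 2.83-fold higher in RVO eyes (edgeR adjusted p = 0.00125).

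Cxcr3 had at most 0.133 CPM and Cxcr6 at most 0.451 CPM in any sample. No receptor passed at 0.01 between RVO and control eyes, where 3 were higher and 1 was lower at 0.05, against 17.5% and 17.1% of all genes tested.

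Atypical receptors bind chemokines without G protein signalling. Ackr1, which carries chemokines across venules, had 21.7, 48.7 and 29.0 CPM in RVO samples, 78.0, 79.7 and 97.2 CPM in control samples and 98.4, 82.7 and 76.0 CPM in untreated samples. It fell 2.61-fold in RVO eyes (log2 fold change -1.38, standard error 0.26, edgeR adjusted p = 0.00200), while control and untreated samples overlapped. Of 6 endothelial markers 2 were higher in RVO and 5 in control than in untreated eyes, against 27.4% and 27.2% of all genes tested. The sum of the endothelial markers was 139, 257 and 186 CPM in RVO, 306 to 342 CPM in control and 157 to 162 CPM in untreated samples. Their part in the result was not tested. Ccrl2 rose 6.98-fold after RVO (edgeR adjusted p = 8.39e-04), but it passed the filter on low counts only through the RVO samples. Ackr3, which scavenges CXCL12, had 5.80 to 7.99 CPM in RVO and 5.64 to 7.04 CPM in untreated samples, with overlap.

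The platelet chemokines Pf4 and Ppbp have other symbols and were outside the naming pattern. Pf4 had 7.26, 4.55 and 5.86 CPM in RVO samples, 1.78, 1.52 and 0.972 CPM in control samples and 0 counts in untreated samples. This is at least 21.9-fold and at least 5.31-fold above untreated eyes, and RVO eyes were 4.15-fold above control eyes (edgeR adjusted p = 0.00857), a call lost without RVO replicate 3, control replicate 2 or control replicate 3. Ppbp was at least 13.0-fold and at least 3.88-fold higher. Of 6 platelet markers, which include these 2 genes, 3 of 4 tested were higher in RVO eyes, against 27.4% of all genes tested. In control eyes 4 of 4 tested were higher, against 27.2%. Pf4 and Ppbp passed the filter only through the RVO samples, and in control eyes only through the control samples. The part of platelets in the result was not tested.

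Leukocyte markers were higher along with the inducible ligands. Against 27.4% of all genes tested, 5 of 5 neutrophil markers tested and 6 of 8 monocyte and macrophage markers were higher in RVO than in untreated eyes. Of these, 4 neutrophil markers, Cxcr2 among them, and 3 monocyte and macrophage markers, Ccr2 among them, had fewer than 10 counts in each untreated sample and passed the filter only through the RVO samples. The summed level of 8 neutrophil markers was 101, 47.4 and 105 CPM in RVO samples, 23.7, 24.9 and 8.53 CPM in control samples and 0.459 to 1.19 CPM in untreated samples, where 4 of the 8 were at 0 in all 3 samples. The summed CXCR2 ligands were 50.7, 10.8 and 42.2 CPM in RVO samples and 10.6, 4.77 and 1.82 CPM in control samples. In both sums RVO replicate 2 was the lowest RVO pool and control replicate 3 the lowest control pool. The highest pools differed, with RVO replicate 3 and control replicate 2 for the markers and replicate 1 of both groups for the ligands. The summed level of 8 monocyte and macrophage markers was 168, 137 and 180 CPM in RVO samples, 58.5, 75.9 and 59.8 CPM in control samples and 13.8 to 18.9 CPM in untreated samples. The summed CCR2 ligands were 32.2, 26.2 and 35.9 CPM in RVO and 13.5, 13.5 and 7.60 CPM in control samples. RVO replicate 2 was again lowest in both sums, but the lowest control pool was replicate 1 for the markers and replicate 3 for the ligands. T and NK cell markers stayed at 0.421 to 1.22 CPM in all 9 samples, with 0 of 8 passing the filter. Whether leukocytes or retinal cells carried the ligand transcripts was not tested.

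**Figure D4:**
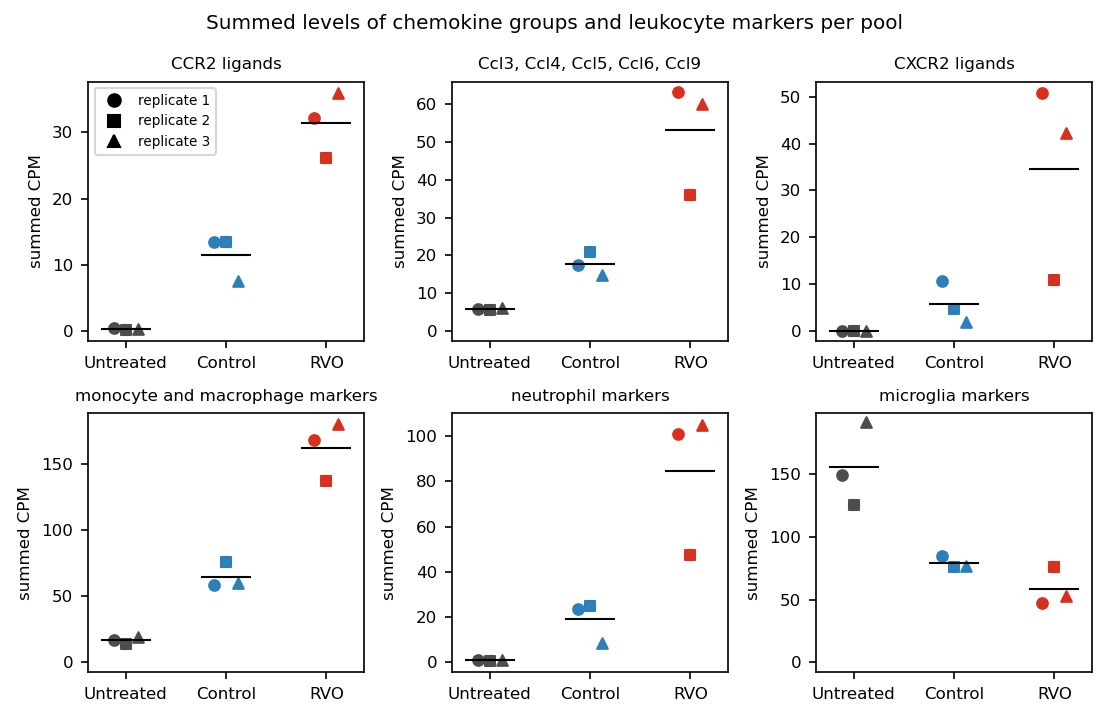
Points show the summed CPM of each ligand or marker group in each pool, with symbols for the replicate and a line at the group mean. The sums of the CCR2 ligands, of Ccl3, Ccl4, Ccl5, Ccl6 and Ccl9, of the CXCR2 ligands and of the monocyte and neutrophil markers are higher in RVO than in control samples in every pool, while microglia markers are highest in untreated samples (125 to 191 CPM).

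Among 7 cytokines known to induce chemokines, 3 of 4 tested rose after RVO, against 27.4% of all genes tested. Of the 3, Il1b and Tnf passed the filter only through the RVO samples. Il1b was at least 31.4-fold and Tnf at least 3.24-fold higher. Lif had 75.9, 48.4 and 73.1 CPM in RVO samples, 16.0, 17.1 and 12.7 CPM in control samples and 0.716 to 1.15 CPM in untreated samples, and RVO eyes were 4.32-fold above control eyes (edgeR adjusted p = 0.00564), a call lost in the same way. Ifng and Il17a had 0 counts in all 9 samples. Of 12 genes that transmit chemokine signals inside leukocytes and other cells, 6 rose and 1 fell after RVO, against 27.4% and 24.6% of all genes tested. After control laser treatment 8 rose and 1 fell, against 27.2% and 25.2%. Between RVO and control eyes 1 was higher and 0 were lower, against 2.70% and 0.634%. Rac2 was 9.10-fold, Was 6.78-fold and Dock2 4.05-fold higher, and Elmo1 fell 3.97-fold. Of the 6 that rose, Was passed the filter only through the RVO samples.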

How the data were processed

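Polyadenylated RNA from 9 pools of 6 retinas was sequenced with a stranded kit. The authors mapped the reads with STAR 2.5.2b to the mouse genome with Gencode vM11 (GRCm38), counted them per gene with featureCounts (Subread 1.5.1) and deposited raw counts per gene symbol without normalization. Of 48679 names, 92 were spike-ins with 0 counts. Groups came from the sample labels, and 0 columns were left unused. Replicates were separate pools. In R 4.3.3, edgeR 4.0.16 fitted each pair of groups separately (filterByExpr, TMM, quasi-likelihood test, Benjamini-Hochberg adjustment over all genes tested, threshold 0.01), as tested on simulated counts. DESeq2 1.42.0 was an alternative. Other alternatives were other scalings, filters and thresholds, the replicate number as a block, 1 fit over all 9 samples and each sample left out. Exon lengths and positions are from GENCODE vM21. Every detected ligand is named. Of other lists, up to 4 called members with the largest change between RVO and untreated eyes are named, plus the receptors of the ligand groups, Pf4 and Ppbp. The result of 1 receptor is not reported here. The members, lists and motifs were chosen with earlier results of these data known. RVO and control eyes were fellow eyes, but no label ties replicate numbers to the same mice, so the samples were not treated as pairs. The deviations of same-numbered RVO and control samples had correlations of -0.166, -0.168 and 0.095 across genes. Those of differently numbered samples were -0.252 to 0.262, so the correlations cannot tell whether the pools are paired.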

Additional observations from a re-analysis of the deposited data

Results flagged for a closer look

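Cx3cl1 drew attention because each RVO sample lay below and each control sample above the mean of the untreated samples. Its log2 fold change between RVO and control eyes, which is the test of this difference, was -1.09, with an edgeR adjusted p of 0.0155 that missed the threshold of 0.01 but passed 0.05.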

How the results depend on the processing

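The count of ligands higher than in untreated eyes was 14 to 18 after RVO under all alternatives run. The number tested was 21 to 30, and 18.1 to 36.4% of all genes were higher. Ligands lower after RVO numbered 1 with scaling by library size only, against 16.7% of all genes. They numbered 4 with all 9 samples in one fit or an adjusted p under 0.05, against 28.8% and 32.5%. With 1 sample left out they numbered 1 to 4 (4 without RVO replicate 2), against 15.8 to 31.0%. The median log2 fold change after RVO was 3.12 when every gene with a count was kept. For control against untreated eyes, the count of higher ligands was 7 to 16. It was lowest in one fit of 9 samples (7 of 24, against 19.9% of all genes) and highest with every gene kept (16 of 30, against 17.8%). The median there, which moves with the ligands admitted by the filter, was 1.68 with every gene, 2.73 with 10 counts in 3 samples, 2.20 in one fit of 9 samples and 0.50 to 3.01 with 1 sample left out (3.01 without control replicate 3, and 2.65, 2.96 and 2.49 without untreated replicates 1, 2 and 3). Between RVO and control eyes 24 to 31 ligands were tested, and shares of all genes follow in brackets. Higher ligands numbered 1 with RLE size factors (1.92%), 13 with every gene (5.28%) and 11 with DESeq2 (11.0%). They numbered 9 in one fit (10.7%), 14 at 0.05 (17.5%) and 0 to 14 with 1 sample left out (0 to 17.1%). Lower ligands numbered 2 with every gene (5.85%), 3 with DESeq2 (12.8%), 3 in one fit (11.8%) and 4 at 0.05 (17.1%). With 1 sample left out they numbered 0 to 3 (0 to 19.3%). These lower counts are near or under the shares of all genes. With the replicate number as a block 0 ligands were higher, with 16 at an unadjusted p under 0.05. Of all genes 0 were called, while the counts of higher ligands against untreated eyes stayed at 14 and 10. The cause was not tested. Scaling by library size only moved the median of all genes from 0.01 to 0.22 after RVO and from 0.01 to 0.19 after control treatment, and with it the log2 fold changes of Ccl27a after RVO (0.09) and of Cxcl13 (0.09) and Cxcl16 (0.07) after control treatment turned positive. With 1 sample left out, the sign turned for Cxcl13 in control eyes (-0.38 to 0.13, with 0.13 without control replicate 3 and 0.09 without untreated replicate 2), and between RVO and control eyes for Ccl12 (-0.33 to 0.35, lowest without RVO replicate 2) and Ccl11 (-0.54 to 0.12, highest without control replicate 2). None of these 5 ligand comparisons had passed the test. The lower depth of untreated samples limits fold changes of ligands at or near 0 to lower bounds.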
